A study of Rattus norvegicus with 11 samples.

Results

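The 41 genes described here were collected as genes of mitochondrial protein import and membrane organisation, and not all encode such proteins. They were chosen by gene symbol (translocase subunits named Timm and Tomm, Samm50, metaxins, Pam16, Dnajc15, Grpel1, Chchd proteins, Immt and the processing peptidase subunits Pmpca and Pmpcb) from 16572 genes tested, and where a gene had several probe sets, the one with the greatest mean signal in the 11 rats stood for it. All 41 passed the filter on low values. RNA came from the left dentate gyrus, dissected together with the hilus, of male Sprague-Dawley rats and was hybridised to Affymetrix Rat Gene 1.1 ST arrays, each rat to its own. The 6 TBI rats had received lateral fluid-percussion injury, a pulse of fluid pressure on the exposed dura, 90 days earlier. The 5 control rats had undergone the same anesthesia and left craniectomy without the impact. The strain carries no engineered allele, and the injury was made on the side that was sampled. The tissue is a mixture of cells, so fewer cells of a type and less RNA per cell cannot be told apart in any value below. Values are log2 signals, and differences are TBI minus control on that scale.

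Nearly all mitochondrial proteins are encoded in the nucleus and enter through the TOM complex of the outer membrane. Precursors with a presequence then pass the TIM23 channel of the inner membrane and are pulled into the matrix by an import motor built around the chaperone mtHsp70, encoded by Hspa9. In that motor Timm44 tethers the chaperone to the channel, Grpel1 exchanges its nucleotide, J proteins such as Dnajc15 stimulate it, and Pam16 (also called Magmas) is a J-like protein that in yeast holds its J-protein partner at the channel. The matrix processing peptidase removes the presequence. The SAM complex inserts barrel-shaped proteins into the outer membrane, the small TIM proteins escort hydrophobic precursors across the intermembrane space to TIM22, and MICOS shapes the junctions of the cristae.

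Pam16 was the member whose lower signal in this comparison led to the choice of these genes, so its values are given as a description. Its signals were 8.35, 8.65, 8.53, 8.45, 8.45 and 8.38 in TBI rats 1 to 6, against 8.81, 8.77, 8.81, 8.80 and 8.78 in control rats 1 to 5. Every TBI rat lay below every control, and the controls lay close together. Mean signal was 8.47 ± 0.110 in the TBI rats (SD, n = 6), set against 8.79 ± 0.0195 in the controls (SD, n = 5), which gives a difference of -0.33 (standard error 0.051) or 0.797-fold. A second Pam16 probe set had signals of 7.01, 7.33, 7.24, 6.76, 7.08 and 6.92 in TBI rats and 7.37, 7.59, 7.30, 7.42 and 7.42 in controls. There 5 of 6 TBI rats were below the lowest control, and TBI rat 2 overlapped the controls. Its difference was -0.36 (standard error 0.095). The probe sets correlated at r = 0.85 over the 11 rats and at r = 0.60 with group means removed.

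The locus of Pam16 is shown because its neighbours share the region. RefSeq (build GRCr8) lists Pam16 on chromosome 10 between 11449316 and 11457071, next to Coro7 and Vasn on one side and Glis2 on the other. Differences of these neighbours were 0.07 for Coro7, 0.08 for Vasn and 0.03 for Glis2 (adjusted p = 0.87, 0.93 and 0.97 from limma). RefSeq also lists a pseudogene, Magmas-ps1, at 89102411 to 89102931 on the same chromosome. The annotation used does not say which of these loci each probe set reads, and RNA of the gene and of the pseudogene cannot be told apart here.

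The subunits that work beside Pam16 in the motor did not pass the test in either direction. Timm44 had signals of 6.98, 6.97, 7.19, 6.88, 6.98 and 6.89 in TBI rats and 6.93, 7.02, 6.97, 7.07 and 6.99 in controls, a difference of -0.02 (standard error 0.054, adjusted p = 0.98 from limma). Grpel1 had signals of 6.00, 6.35, 6.31, 6.23, 6.27 and 6.32 after TBI against 6.38, 6.01, 6.23, 6.14 and 6.23 in controls, a difference of 0.05 (adjusted p = 0.94 from limma). Dnajc15 ranged between 7.50 and 7.78 after TBI and between 7.55 and 7.72 in controls, with a difference of 0.04 (adjusted p = 0.94 from limma). For all of these the groups overlapped. Hspa9, which is not a member by symbol but encodes the motor chaperone itself, had signals between 8.32 and 8.72 after TBI and between 8.30 and 8.53 in controls (difference 0.04, adjusted p = 0.95 from limma).

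The mean of Timm44, Grpel1, Dnajc15 and Hspa9, a summary chosen after their values were seen, differed by 0.0287. Pam16 minus this mean, with the control mean set to 0, ran from -0.498 to -0.158 in TBI rats and from -0.0468 to 0.0468 in controls. For the second probe set the same quantity ran from -0.653 to -0.0963 in TBI rats and from -0.143 to 0.190 in controls, with 5 of 6 TBI rats below the lowest control.

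**Figure D1:**
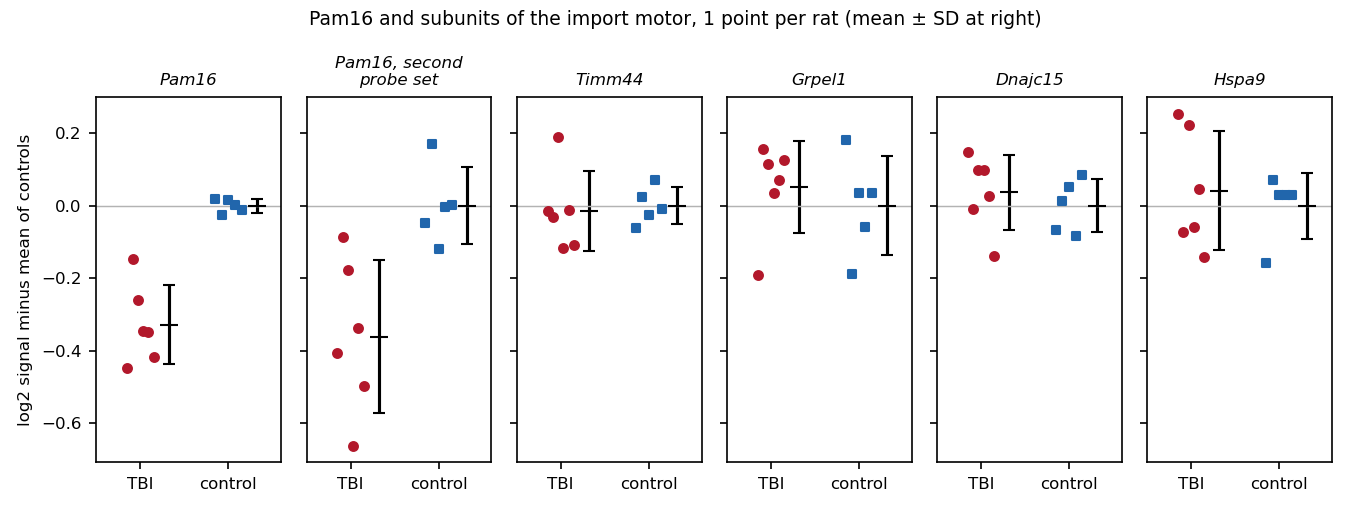
Signals of Pam16 (both probe sets), Timm44, Grpel1, Dnajc15 and Hspa9 in 6 TBI rats (red circles) and 5 control rats (blue squares), as log2 signal minus the mean of the controls, with 1 point per rat and mean ± SD at the right of each group. Only in the first panel do all 6 TBI rats lie below all 5 controls. The 4 other genes overlap between groups.

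The 4 measured members of the TIM23 channel overlapped between groups. Timm17a, a channel subunit, differed by -0.0011, with signals of 7.48 to 7.68 after TBI and 7.52 to 7.65 in controls. Timm17b, its close relative, differed by -0.04, and Timm50, the presequence receptor of the channel, by 0.04 (adjusted p = 0.91 and 0.95 from limma). Timm21, which links the channel to the outer membrane translocase and the respiratory chain, had signals of 7.42, 6.45, 7.57, 6.26, 6.86 and 6.33 after TBI and 6.64, 7.78, 6.89, 7.23 and 6.90 in controls. Its spread within each group exceeded the difference of -0.27 (standard error 0.27, adjusted p = 0.90 from limma). Romo1, a small inner-membrane protein associated with the channel, differed by 0.07 (adjusted p = 0.92 from limma). Timm23, Dnajc19, Grpel2 and Tomm5 had only probe sets with several symbols and are not members. The 3 probe sets shared by Timm23 and Timm23b differed by -0.16, -0.17 and -0.15 (adjusted p = 0.86, 0.87 and 0.85 from limma). In these, 4, 4 and 3 of 6 TBI rats lay below the lowest control. The probe set that Dnajc19 shares with Fxr1 differed by -0.03, and that of Grpel2 with Afap1l1 by 0.09. The probe set of Tomm5 with Fbxo10 differed by 0.03 (adjusted p = 0.95, 0.75 and 0.93 from limma with such probe sets included).

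Over all 41 members, 0 rose and 1 fell at an adjusted p under 0.05 (limma), and the 1 is Pam16. Among all 17905 probe sets tested, 0.14% rose and 0.0112% fell by that rule, and nothing is read from the single call, which led to the choice of the genes. Leaving out TBI rat 2 or TBI rat 3 kept the call, and leaving out any other single rat ended it (adjusted p = 0.0514 to 0.129 from limma). By unadjusted p under 0.05, 3 members were lower (Pam16, Chchd1 and Tomm40l) and 0 higher, beside 4.96% higher and 1.87% lower among all probe sets. Without Pam16, which was chosen for its lower signal, 2 of the other 40 members were lower (5%). The median difference of the members was -0.02, against 0.01 over all probe sets, and 33 of 41 members (80.5%) differed by less than 0.1, as did 80.1% of all probe sets. Of the members, 24 had a negative difference (58.5%), beside 42.8% of all probe sets. Among genes described further below, 23 of 37 further import and membrane genes had one. So did 53 of 96 oxidative phosphorylation subunits and 40 of 65 mitochondrial ribosomal protein genes. In 2 members, Pam16 and Chchd1, all TBI rats were below all controls, beside 0.207% of all probe sets, and in 0 members were all TBI rats above all controls, beside 0.832%. Without Pam16 that is 1 of 40 members (2.5%) below, and nothing is read from the count with it.

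**Figure D2:**
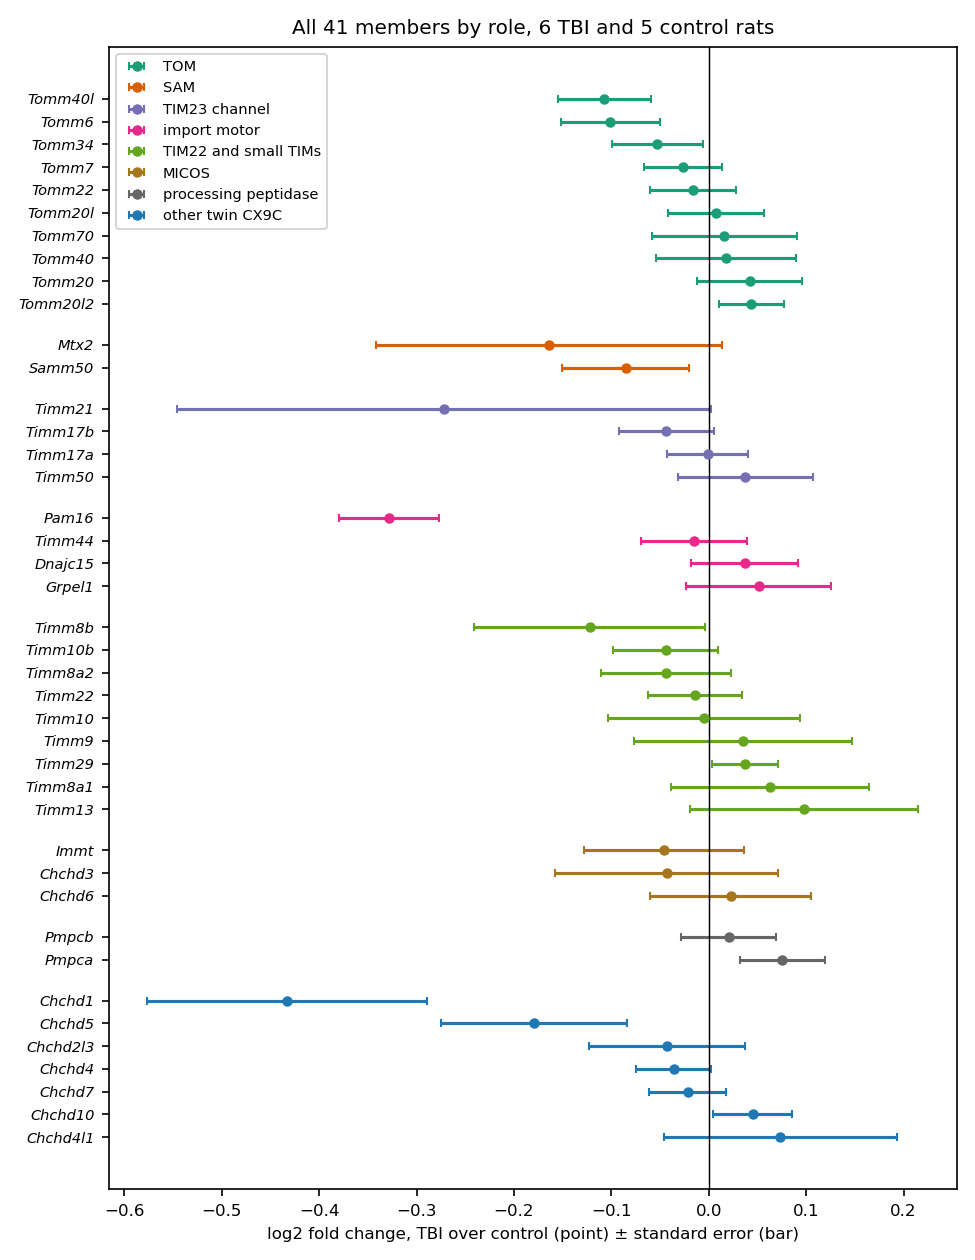
Difference between 6 TBI and 5 control rats (point, log2 fold change, TBI over control) with its standard error (bar) for all 41 members, grouped and coloured by role. Pam16 is at -0.33 with a standard error of 0.051, Chchd1 at -0.43 with one of 0.14, and 33 members (80.5%, beside 80.1% of all probe sets) lie within 0.1 of 0.

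Chchd1, a twin CX9C protein that is a subunit of the small mitochondrial ribosomal subunit, had the most negative difference of the members. Its signals were 7.61, 7.53, 7.55, 7.32, 7.07 and 6.73 in TBI rats and 7.67, 7.93, 7.64, 7.73 and 7.70 in controls. No TBI rat overlapped the controls, but TBI rats 1, 2 and 3 lay just below them and rat 6 far below. The difference was -0.43 (standard error 0.14, adjusted p = 0.50 from limma). Chchd5, another twin CX9C protein, had signals of 7.59, 7.93, 8.20, 8.09, 8.15 and 7.89 after TBI and 8.18, 8.23, 8.09, 8.05 and 8.22 in controls, a difference of -0.18 (adjusted p = 0.80 from limma). The other 5 twin CX9C genes, among them Chchd10 with 0.05, differed by -0.04 to 0.07. Chchd4l1, the highest of these, is classed as a long noncoding RNA in the RefSeq annotation used, whereas the other 40 members are protein-coding. Its mean signal of 3.39 lay close to the background level of 3.06.

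Of the 10 members with a Tomm symbol, not all of them TOM subunits, 1 was lower by unadjusted p under 0.05. None was higher, beside 1.87% lower and 4.96% higher among all probe sets. Tomm40l, a relative of the channel-forming Tomm40, had signals of 6.45, 6.45, 6.51, 6.32, 6.33 and 6.40 after TBI against 6.45, 6.57, 6.62, 6.45 and 6.49 in controls (difference -0.11, standard error 0.048, adjusted p = 0.72 from limma). Tomm6, a small stabilising subunit, differed by -0.10, with 8.81 to 9.01 after TBI and 8.94 to 9.14 in controls. The 8 remaining Tomm genes differed by -0.05 to 0.04, Tomm20l2 being the highest. In the SAM complex, Samm50, its barrel-forming core, differed by -0.09 and the metaxin Mtx2 by -0.16 (adjusted p = 0.87 and 0.91 from limma). Mtx2 signals were 7.61, 6.81, 7.60, 6.84, 7.04 and 6.83 in TBI rats and 7.02, 7.69, 7.16, 7.39 and 7.18 in controls, and the rats high for Mtx2 were those high for Timm21.

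Among the 9 genes of TIM22 and the small TIMs, Timm8b differed by -0.12 and Timm13, the highest member of all, by 0.10 (adjusted p = 0.90 and 0.92 from limma). Timm29, a TIM22 subunit, differed by 0.04 and the small TIM Timm10b by -0.04. The MICOS genes Immt, its organising core, and Chchd3 differed by -0.05 and -0.04. The peptidase subunits Pmpca and Pmpcb differed by 0.08 and 0.02 (adjusted p = 0.82 and 0.96 from limma). All of these groups overlapped.

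Several members varied together within groups. After group means were removed, 1 component held 63.9% of the variance of all probe sets tested, and TBI rat 1, TBI rat 3 and control rat 2 had scores of 0.49, 0.42 and 0.45 while the other rats had scores from -0.34 to 0.06. The component was computed from these same arrays, members included. With group means removed, 8 members (19.5%) correlated with it at r above 0.8 and 5 (12.2%) at r below -0.8, beside 17.4% and 9.9% of all probe sets, so shares of this size are not particular to the members. Timm21 followed it at r = 0.99, Mtx2 at 0.98, Chchd3 at 0.97, Timm8b at 0.95, Samm50 at 0.92 and Immt at 0.90 (n = 11 rats). In the opposite direction stood Chchd6 at -0.88, Chchd2l3 at -0.85 and Timm13 at -0.83. The correlations of Timm21 with Mtx2 and with Timm8b were 0.98 and 0.96 over the 11 rats. Pam16 did not share this pattern (r = -0.18), its second probe set had r = 0.48 and Chchd1 had r = 0.67. In the fit with this component as a covariate, Timm21 (adjusted p = 0.0105), Chchd1 (0.0299) and Mtx2 (0.0352) joined Pam16 below the threshold in limma, but 495 of 17905 probe sets fell in that fit.

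**Figure D3:**
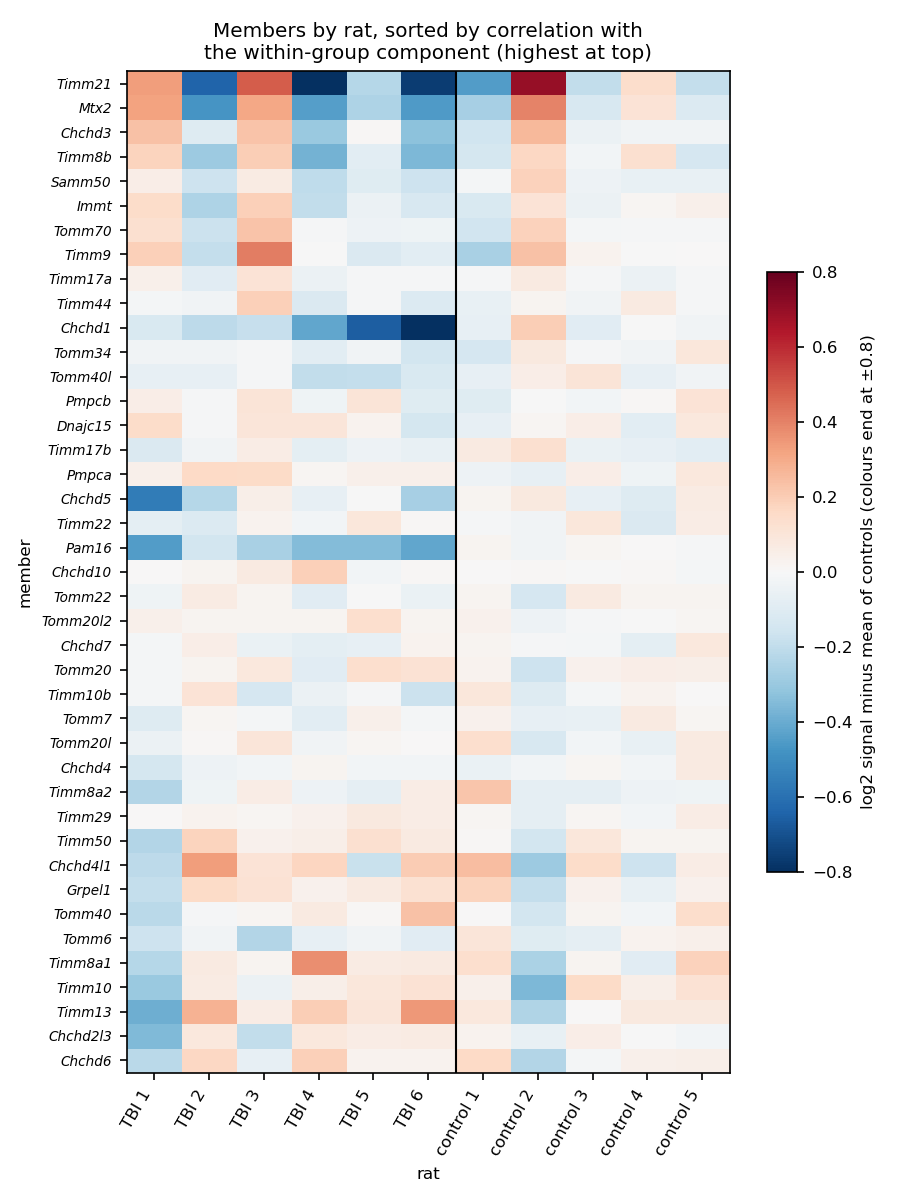
Signals of the 41 members in TBI rats 1 to 6 and control rats 1 to 5, as log2 signal minus the mean of the controls, with members sorted by their correlation with the within-group component (r = 0.99 for Timm21 at the top). TBI rats 1 and 3 and control rat 2 are red in the top rows, whereas Pam16 is blue in all 6 TBI rats.

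**Figure D4:**
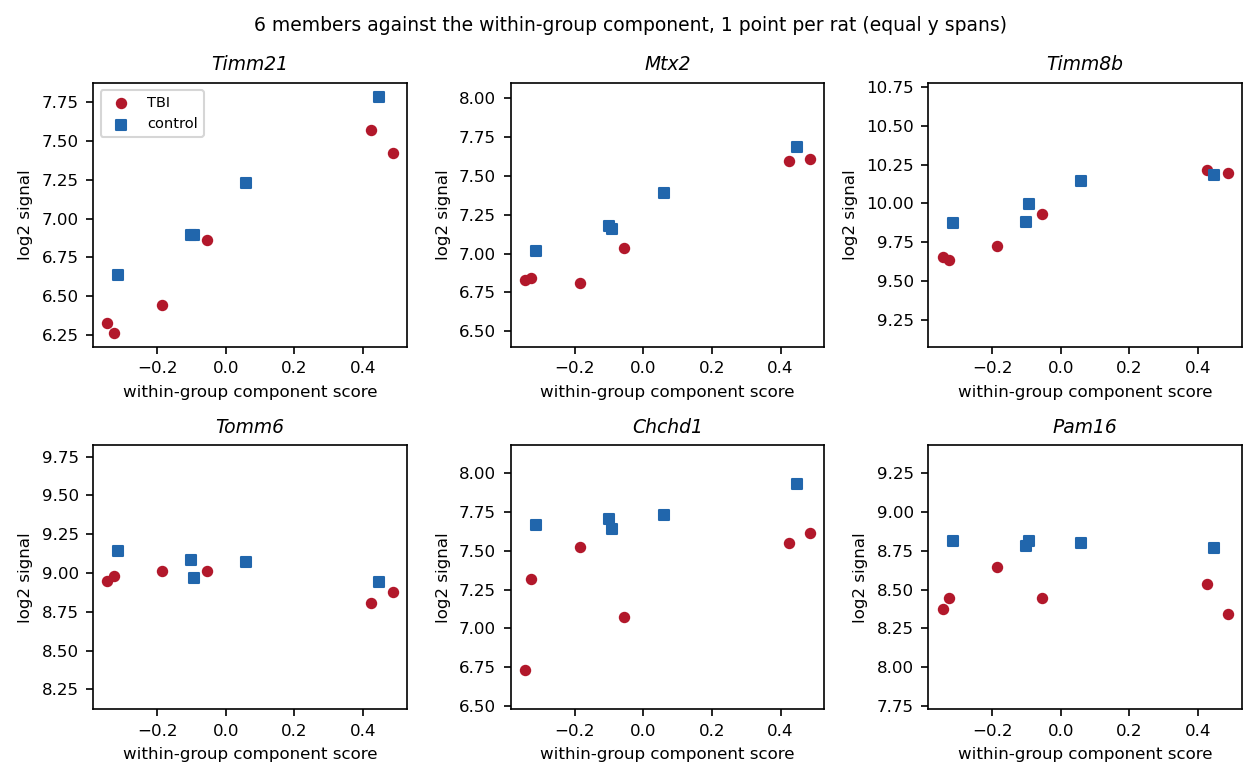
Log2 signal of Timm21, Mtx2, Timm8b, Tomm6, Chchd1 and Pam16 against the score of each rat on the within-group component (unitless), with TBI rats as red circles, control rats as blue squares and equal spans on the vertical axes. Timm21, Mtx2 and Timm8b rise along the score in both groups, and Pam16 lies lower in every TBI rat across its range.

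Over the 11 rats, the correlations of Pam16 with the 40 other members had a median r of 0.118. They were highest for Chchd1 (0.71), Tomm40l (0.63), Chchd5 (0.59), Tomm6 (0.58) and Timm10b (0.45) and lowest for Tomm20l2 (-0.51), Timm29 (-0.40) and Chchd10 (-0.32). These points share the group difference, and with group means removed the value for Chchd1 was 0.34. The second Pam16 probe set had r = 0.85 over the 11 rats. With group means removed it had 0.60, and Timm50 and Pmpca had 0.64 and 0.63. Without TBI rats 1 and 3 and control rat 2, and with group means kept, the second probe set had 0.89 and Chchd1 0.93. These 2 values again share the group difference.

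Other mitochondrial genes were set beside these. A list of 45 further import, chaperone, protease and membrane genes had 37 measured, of which 3 were lower and 0 higher in limma by unadjusted p under 0.05, beside 1.87% and 4.96% of all probe sets, and none passed after adjustment. The 3 were the matrix protease Lonp1 (-0.25), the inner-membrane protease subunit Afg3l2 (-0.10) and Cox18, an insertion factor for a respiratory chain subunit (-0.11), and Clpp, another matrix protease, was next by p with 0.08. Of 96 measured oxidative phosphorylation subunits, 3 were higher and 6 lower at an unadjusted p under 0.05, with a median of -0.01. Of 65 mitochondrial ribosomal protein genes, 2 were higher and 6 lower, with a median of -0.02, beside the same 4.96% higher and 1.87% lower over all probe sets.

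Markers of cell types differed between the same rats. The mean of 6 of 6 interneuron markers was 7.30 to 7.70 in TBI rats and 7.76 to 7.93 in controls, so in that mean every TBI rat was below every control. All 6 had a negative difference, from -0.60 for Pvalb to -0.12 for Gad1, but taken singly only Pvalb and Sst separated the groups. For Gad1 and Slc32a1, TBI rat 4 lay above every control. The interneuron mean correlated with Pam16 at r = 0.85 over the 11 rats and at r = 0.30 with group means removed. Astrocyte markers (5 of 6 measured) averaged 9.86 to 10.04 after TBI and 9.56 to 9.98 in controls. Endothelial markers (4 of 5 measured) averaged 6.24 to 6.34 against 6.10 to 6.28 in controls. Astrocyte markers did not move together: Gfap differed by 0.83, Aqp4 by 0.34 and Gja1 by 0.13, but Slc1a2 by -0.0048 and Slc1a3 by -0.09. The astrocyte mean correlated with Pam16 at r = -0.75 and the endothelial mean at r = -0.81, and with group means removed at -0.28 and -0.35. For the other marker lists, r with Pam16 over the 11 rats ran from -0.35 for microglia to 0.28 for general neuronal markers. It was 0.0011 for granule cells, 0.13 for CA pyramidal cells, 0.19 for oligodendrocytes and 0.10 for their progenitors. Granule cell markers overlapped, at 6.87 to 7.03 after TBI and 6.90 to 6.98 in controls, as did general neuronal markers, at 10.22 to 10.47 and 10.28 to 10.49. The lowest defining markers passed the filter on low values, with mean signals of 5.87 for Pvalb and 3.33 for Tdo2. Tdo2, which is part of the granule cell mean, lay close to the background level of 3.06. The part of these cell types in the Pam16 values was not tested.

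The promoters of Pam16 and of 4 members that were also lower or varied most are shown to compare their letters with motifs of factors known to act on mitochondrial genes. These 5 genes were chosen after their values were seen. Sequences are the 300-base windows around the annotated start in RefSeq (GRCr8), 5′ to 3′ on the strand of the gene, with every motif match on either strand in capitals. The motifs searched were NRF1 as GCGCNNGCGC, the ETS core as CCGGAAG, YY1 as ATGGCGG and ESRRA as AAGGTCA.
Pam16 (chr10:11449242-11449541, forward strand): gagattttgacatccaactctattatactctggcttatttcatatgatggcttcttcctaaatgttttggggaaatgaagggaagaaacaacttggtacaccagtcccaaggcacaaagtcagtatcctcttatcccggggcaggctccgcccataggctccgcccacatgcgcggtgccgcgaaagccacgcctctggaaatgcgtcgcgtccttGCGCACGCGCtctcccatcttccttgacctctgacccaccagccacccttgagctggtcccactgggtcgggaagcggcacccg
Chchd1 (chr15:3643106-3643405, reverse strand): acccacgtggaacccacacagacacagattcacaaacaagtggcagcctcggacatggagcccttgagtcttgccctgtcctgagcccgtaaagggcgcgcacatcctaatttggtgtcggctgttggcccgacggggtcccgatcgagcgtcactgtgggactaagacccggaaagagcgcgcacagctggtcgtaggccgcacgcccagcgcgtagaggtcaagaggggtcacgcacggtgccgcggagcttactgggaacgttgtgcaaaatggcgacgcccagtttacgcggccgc
Timm21 (chr18:80594188-80594487, reverse strand): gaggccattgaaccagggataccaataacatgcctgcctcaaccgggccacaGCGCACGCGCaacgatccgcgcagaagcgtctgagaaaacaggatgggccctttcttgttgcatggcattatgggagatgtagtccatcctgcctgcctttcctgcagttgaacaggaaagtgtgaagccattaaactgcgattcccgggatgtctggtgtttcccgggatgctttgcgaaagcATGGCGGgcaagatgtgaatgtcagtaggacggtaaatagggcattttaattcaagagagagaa
Mtx2 (chr3:80137347-80137646, forward strand): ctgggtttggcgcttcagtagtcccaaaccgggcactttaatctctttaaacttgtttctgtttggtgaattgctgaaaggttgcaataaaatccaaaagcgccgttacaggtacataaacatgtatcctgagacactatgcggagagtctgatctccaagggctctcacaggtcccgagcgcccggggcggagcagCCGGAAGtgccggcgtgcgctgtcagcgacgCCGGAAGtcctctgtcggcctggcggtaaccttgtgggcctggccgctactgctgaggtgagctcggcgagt
Timm8b (chr8:59850487-59850786, forward strand): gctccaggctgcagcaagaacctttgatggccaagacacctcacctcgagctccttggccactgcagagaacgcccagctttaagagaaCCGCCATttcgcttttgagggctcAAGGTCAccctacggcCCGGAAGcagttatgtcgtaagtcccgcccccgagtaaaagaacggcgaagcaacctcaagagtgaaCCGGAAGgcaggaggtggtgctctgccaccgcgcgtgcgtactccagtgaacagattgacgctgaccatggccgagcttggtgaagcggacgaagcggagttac
The Pam16 window holds 1 NRF1 match and the Timm21 window 1 NRF1 and 1 YY1 match. The gene span given above for Pam16 begins inside the Pam16 window, at 11449316, and the NRF1 match there lies downstream of that position. Mtx2 has 2 ETS matches, and Timm8b has 2 ETS, 1 YY1 and 1 ESRRA match. The Chchd1 window holds none of these letters.

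A promoter was found for 36 members. NRF1 letters stood in 6 of them (16.7%) and in 6.15% of all 27457 promoters, ETS letters in 13 (36.1%) and in 9.22%, YY1 letters in 9 (25%) and in 5.22%, and ESRRA letters in 3 (8.33%) and in 4.37%. A match is a description of the sequence.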

How the data were processed

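Left dentate gyrus RNA of 6 TBI and 5 control rats was hybridised to 1 array per rat. The deposited log2 values of 29214 probe sets are the authors' own output of Robust Multi-array Average in oligo (version 1.30.0 in the submitters' processing notes, an earlier one in the study's methods). The method equalizes the distributions of the arrays (array medians 5.26 to 5.35) and combines probes by median polish, which left tied values in 12 of the 41 members.

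Following the study's methods, values below its background level were set to that level. It was read as the lowest value in the part of the study's results table used here, since the antigenomic probes named in those methods were not used, so the level is an approximation. Probe sets not above the level in over 5 of the arrays were dropped, as were those without exactly 1 gene symbol. The 17905 remaining probe sets were fitted in limma 3.58.1 (R 4.3.3), moderated with eBayes, and p-values were adjusted by Benjamini-Hochberg across the whole table, with 0.05 as threshold. The number of arrays limits the precision. The steps were tested on simulated data. For the fit, probe sets varied independently there, unlike in these arrays, so that test does not cover shared variation. Symbols come from the platform annotation, which can be old.

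Members and lists were chosen with earlier results of these data known. Genes named are Pam16, the channel and motor subunits, members with an unadjusted p under 0.05, the 2 lowest p of each other complex, the 5 highest and 3 lowest correlations with Pam16, up to 4 further import genes and the neighbours of Pam16. Others were named after their values were seen. Alternatives tried were other filters, scalings and summaries of probe sets, array quality weights, a block for replicate number, the methods' analysis of variance, the within-group component as a covariate and leaving out rats. Plots used matplotlib 3.10.9 in Python 3.11.15.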

Additional observations from a re-analysis of the deposited data

Results flagged for a closer look

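In 48 groups of rats tested for a single value far from the rest (chance flags about 1 in 20 such groups), 5 had one. The groups are not independent, because members share the within-group component, so the 5 flags cannot be set against that rate. Timm44 had a log2 signal of 7.187 in TBI rat 3, with the other TBI rats at 6.879 to 6.984. Timm50 had 7.513 in TBI rat 1, with the others at 7.779 to 7.921. Grpel1 had 6.004 in TBI rat 1, with the others at 6.231 to 6.352. Samm50 had 7.697 in control rat 2, with the other controls at 7.449 to 7.493. Tomm20l2 had 5.081 in TBI rat 5, with the others at 4.969 to 4.986. TBI rats 1 and 3 and control rat 2 are the rats that stand apart on the within-group component.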

How the results depend on the processing

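Pam16 stayed lower in all 23 alternatives, by -0.364 to -0.304, but passed the adjusted threshold in 10 of them (adjusted p = 0.00273 to 0.605 from limma or the methods' analysis of variance). It passed in 2 of 11 fits that left out a rat, those without TBI rat 2 and TBI rat 3. The count of members lower at an adjusted p under 0.05, which is 1, became 0 with probe sets averaged within each gene, the methods' analysis of variance, a second quantile normalization and the replicate block, 2 with array weights (Chchd1 added, adjusted p = 0.0436) and 4 with the within-group component as a covariate, and 0 to 1 when a rat was left out. Members higher at an unadjusted p under 0.05, which are 0, became 1 with array weights and without control 2, TBI 1 and TBI 3, and 0 to 1 when a rat was left out. Members lower, which are 3, became 5 on median-centred arrays, 8 with the component and 8 without those 3 rats, and 2 to 4 when a rat was left out. Further import genes higher, which are 0, became 1 with array weights, the analysis of variance and the component, 2 without the 3 rats, and 0 to 1 when a rat was left out. Those lower, which are 3, became 8 with array weights, 9 with the component, 8 without the 3 rats and 1 with the replicate block, and 0 to 3 when a rat was left out. Over all probe sets, 888 were higher and 334 lower at an unadjusted p under 0.05. These counts were 511 and 722 on median-centred arrays, 1748 and 1859 without the 3 rats and 1765 and 1508 with the component. They were 1866 and 1371 with array weights, 515 and 147 with the replicate block and 904 and 330 with the analysis of variance. When a rat was left out, 652 to 1521 were higher and 236 to 669 lower. At an adjusted p under 0.05, 2 of all probe sets were lower, but 67 with array weights, 495 with the component and 0 with the block. When a rat was left out, 1 to 4 were. The median r of Pam16 with other members was 0.201 with group means removed. With group means kept it was 0.084 without the 3 rats and 0.186 on median-centred arrays.

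Differences near 0 changed sign. Timm17a was 0.00554 with probe sets averaged, 0.000976 with the block and 0.0024 after a second quantile normalization, and -0.0237 to 0.0175 when a rat was left out. With the block, Timm44 was 0.00332 and Chchd3 0.0141, and when a rat was left out they ran from -0.0564 to 0.00524 and from -0.0983 to 0.0221. Pmpcb was -0.00822 on median-centred arrays and -0.00834 without the 3 rats, and -0.00405 to 0.0483 when a rat was left out. Dnajc15 was -0.00258 without the 3 rats. The labels do not say that replicate numbers pair the rats. Deviations of same-numbered rats over all probe sets correlated at -0.65 to 0.11. These values also carry the within-group component, so whether same-numbered rats shared a batch was not tested. The block left TBI rat 6 without a partner. With the replicate block, Pam16 differed by -0.31 (adjusted p = 0.605 from limma). The causes of these changes were not tested.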
